A study of Mus musculus with 22 samples.

Results

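The integrated stress response was followed in mouse embryos through 10 genes, chosen by symbol: the transcription factors Atf4, Ddit3, Atf3 and Xbp1, the regulators Ppp1r15a, Trib3 and Ddit4, the glutathione enzyme gene Chac1, and the amino acid synthesis genes Asns and Psat1. They are 10 of the 55226 gene symbols in the expression table and occupy 11 of its 55335 entries. In the integrated stress response, kinases that sense a shortage of amino acids, unfolded protein in the endoplasmic reticulum, heme deficiency or viral RNA phosphorylate the initiation factor eIF2alpha, which slows general translation while the ATF4 protein is translated more. ATF4 then switches on genes for amino acid supply and for the termination or prolongation of the response, among them Ddit3, Trib3, Asns, Psat1 and Ppp1r15a. Since ATF4 is controlled largely through translation, its mRNA level is not a measure of its activity.

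RNA-seq was performed by the Smart-seq2 method on 22 libraries, each made from 15 pooled embryos. By the study's methods, early embryos came from superovulated B6D2F1 females mated with B6D2F1 males. In H2A.Z KD embryos, zygotes at the pronuclear stage had been injected with about 10 pl of mixed siRNAs at 20 µM against H2A.Z, a variant of histone H2A. Control embryos carry only the label control. The study's methods describe the control embryos of its PCR assays as not injected and do not say so for these libraries, so knockdown and injection cannot be told apart. Embryos were collected at 43 to 44 h (2-cell), 78 h (morula) and 94 h (blastocyst) after hCG, with 4 control and 3 KD libraries of 2-cell embryos, 4 and 3 of morulae, and 4 and 4 of blastocysts. The labels do not say whether the libraries of a group came from separate collections, so p-values measure the spread between pools of embryos, which may be in part technical. In pooled embryos, fewer cells of a type and less RNA per cell cannot be told apart. The study reported that far fewer KD than control embryos formed blastocysts. KD blastocysts here are the libraries so labelled, and delayed development cannot be told apart from other effects of the knockdown.

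H2afz, the gene for H2A.Z targeted here, was at 905 to 1244 FPKM in control and 112 to 415 FPKM in KD 2-cell embryos, at 1158 to 1511 and 25.7 to 30.3 FPKM in morulae, and at 1945 to 2656 and 53.2 to 67.2 FPKM in blastocysts, with no overlap between groups (FPKM, fragments scaled to transcript length and library total). The read depth is unknown. The value of 1 fragment, read from the steps between low values of 13577 genes with a single exon, varied from 0.0349 to 0.0674 FPKM for a transcript of 1 kb between the deepest and the shallowest library. The 7 trophectoderm markers summed to 990 to 1477 FPKM in control and 584 to 784 FPKM in KD blastocysts. Krt8 and Krt18 made up most of that sum. Krt18 (646 to 992 and 329 to 461 FPKM) and Elf5 were lower in KD without overlap, Krt8, Cdx2, Gata3 and Eomes overlapped, and Tfap2c was higher in KD (3.20 to 8.36 and 10.6 to 18.4 FPKM). The 5 inner cell mass markers summed to 127 to 171 FPKM in control and 40.1 to 55.2 FPKM in KD morulae, mostly through Nanog (62.9 to 143 and 11.6 to 32.5 FPKM). Pou5f1 was also lower in KD morulae, with groups that narrowly missed overlapping (21.5 to 55.3 and 16.3 to 21.3 FPKM), while Klf4, Sox2 and Esrrb overlapped. The trophectoderm markers Gata3 (16.5 to 22.7 and 9.88 to 14.3 FPKM) and Tfap2c (15.0 to 24.6 and 13.1 to 14.3 FPKM) were lower in KD morulae too, without overlap. In FPKM as deposited, given here, 22.9% of the genes tested were wholly lower in KD morulae. Sums of primitive endoderm markers overlapped between control and KD at each stage. Markers of the 2-cell embryo summed to 0.291 to 0.964 FPKM in control and 3.08 to 14.0 FPKM in KD blastocysts. Markers of cumulus and granulosa cells summed to at most 17.1 FPKM in any library. Nearly all of that was Amhr2 (3.82 to 17.1 FPKM), and no other marker of the list was above 0.0984 FPKM.

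The promoters of the members are shown because ATF4 acts through the C/EBP-ATF response element, here the letters TGATGNAA on either strand. Windows from 250 bases before to 50 bases after the gene start were taken from RefSeq (GRCm38.p6) and found for all 10 genes. The element occurred in the windows of 4 members, Asns, Atf3, Chac1 and Trib3, and in 3.97% of all 32851 windows. In Trib3 it lay after the gene start. The other 3 stretches are printed in the direction of the gene, with the element in capitals.
Atf3: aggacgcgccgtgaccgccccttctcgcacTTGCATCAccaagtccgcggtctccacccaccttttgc
Chac1: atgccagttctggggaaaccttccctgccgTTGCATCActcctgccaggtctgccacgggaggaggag
Asns: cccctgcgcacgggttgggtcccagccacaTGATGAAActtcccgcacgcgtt
The stretches lie at chr1:191183406-191183473 on the minus strand for Atf3, chr2:119351019-119351086 on the plus strand for Chac1 and chr6:7693210-7693262 on the minus strand for Asns. In Atf3 and Chac1 the printed letters TTGCATCA are the reverse complement of the element, which thus reads on the strand opposite to the gene. The cAMP response element TGACGTCA, which overlaps none of these matches, occurred in the window of Ppp1r15a alone among the members and in 1.79% of all windows. The unfolded protein response element TGACGTGG (0.676% of windows) and the ER stress response element (0.119%) occurred in no member's window. A match in these letters is not evidence of binding, and no match says nothing about the factor.

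In blastocysts, 4 members were higher in H2A.Z KD: Trib3, Ppp1r15a, Atf3 and Psat1. The other 4 tested members, Atf4, Ddit3, Xbp1 and Asns, had log2 fold changes between 0.25 and 0.63 and did not pass the threshold of an adjusted p of 0.05, while Ddit4 and Chac1 were too low to be tested. Over all 11828 genes tested, 16.7% were higher in KD blastocysts and 19.8% lower. Genes were tested where they reached 1 FPKM in at least 3 libraries, and Atf3 and Trib3 met this only through the KD libraries, so that their place among the tested members is not independent of their difference. The median log2 fold change was 0.48 over the other 6 tested members, 2 of which were higher, 0.84 with Atf3 and Trib3 included, and 0.00 over all genes tested.

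**Figure D1:**
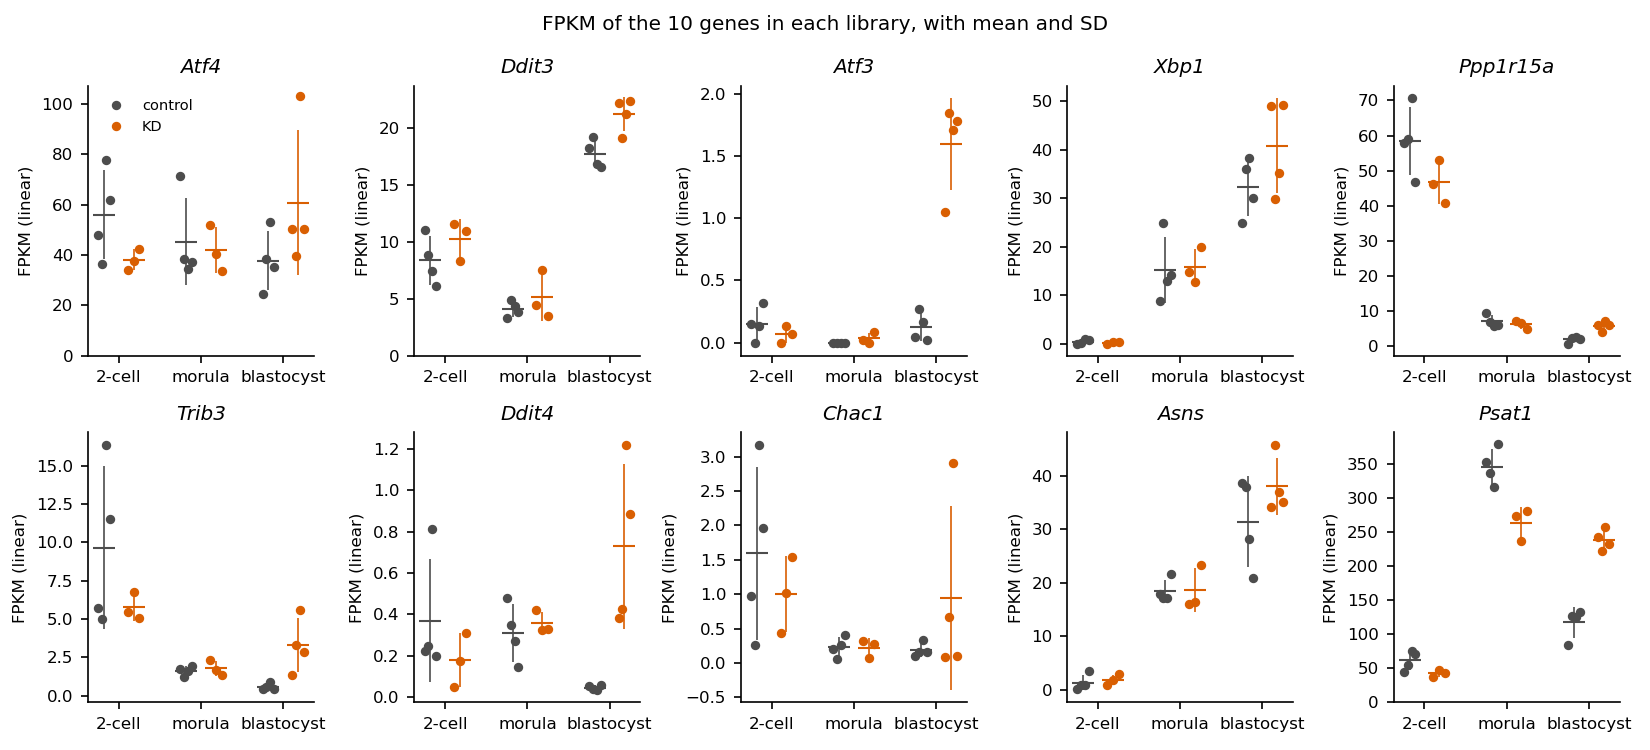
FPKM on linear axes for each of the 10 genes by stage, with a point for each library, a bar for the mean and a line for the SD (control grey, KD orange). The KD blastocysts lie above all control blastocysts for Atf3, Ppp1r15a, Trib3, Ddit4 and Psat1, whereas Psat1 in morulae lies below.

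Atf4 encodes the effector transcription factor of the response. Its level in control blastocysts was 24.7, 38.2, 53.0 and 35.3 FPKM, and in KD blastocysts 50.2, 39.5, 103 and 50.3 FPKM. The groups overlapped, and KD library 5 stood far above the other KD libraries. The log2 fold change was 0.63 (SE 0.25, 95% interval 0.09 to 1.16, adjusted p = 0.0639 by limma). With each library left out, the log2 fold change ranged from 0.40 to 0.77 and the adjusted p from 0.0328 to 0.160. Of these fits, only those without control library 5 (adjusted p = 0.0352) or without KD library 4 (0.0328) passed.

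Ddit3 encodes CHOP, a transcription factor that ATF4 induces and that can promote cell death. It stood at 18.2, 19.2, 16.8 and 16.6 FPKM in control and 22.1, 19.1, 21.2 and 22.3 FPKM in KD blastocysts. The groups overlapped by KD library 4 alone, and the log2 fold change of 0.25 (SE 0.16) did not pass (adjusted p = 0.228). A second Ddit3 entry of 105 exonic bases lies wholly inside the longer entry of 1713 bases used here, so how reads were divided between both is uncertain.

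Atf3 encodes a transcription factor of the stress response that is nearly absent from unstressed cells. It was at 0.0420, 0.272, 0.163 and 0.0252 FPKM in control blastocysts and at 1.05, 1.84, 1.71 and 1.78 FPKM in KD blastocysts. In fragments that is approximately 2, 9, 6 and 1 in controls and 48, 78, 74 and 66 in KD. No KD library overlapped a control library, and the log2 fold change on the scale of log2(FPKM + 1) was 1.20 (SE 0.16, adjusted p = 0.000147). Of the genes tested, 14.6% had KD blastocysts wholly above controls. Atf3 was listed at 0 in all 4 control morulae and at most at 0.0829 FPKM in KD morulae.

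Xbp1 encodes the transcription factor activated by splicing in the IRE1 arm of the unfolded protein response, and the table gives its total level rather than its splicing. It was at 25.0, 36.0, 38.3 and 29.9 FPKM in control and 49.0, 29.9, 35.3 and 49.1 FPKM in KD blastocysts. Of the KD values, 2 lay within the control range and 2 above it, and the log2 fold change of 0.33 (SE 0.20) did not pass (adjusted p = 0.224).

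Ppp1r15a encodes GADD34, which directs a phosphatase to eIF2alpha and thereby ends the response. It measured 0.750, 2.43, 2.61 and 1.94 FPKM in control and 5.95, 4.07, 7.21 and 6.00 FPKM in KD blastocysts. Every KD library was above every control library. The log2 fold change was 1.26 (SE 0.22, adjusted p = 0.00112).

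Trib3 encodes a pseudokinase that ATF4 and CHOP induce. It rose from 0.439, 0.530, 0.890 and 0.422 FPKM in control blastocysts to 1.34, 3.33, 5.61 and 2.83 FPKM in KD blastocysts. The groups did not overlap, although the KD libraries were spread widely, and the log2 fold change was 1.36 (SE 0.24, adjusted p = 0.00120). Ddit4, which encodes REDD1, an inhibitor of mTORC1, was near the limit of the measurement at 0.0516, 0.0384, 0.0332 and 0.0572 FPKM in controls, approximately 2, 1, 1 and 2 fragments. In KD blastocysts it measured 0.383, 0.425, 1.22 and 0.884 FPKM, approximately 14, 15, 43 and 27 fragments, and the groups did not overlap. Ddit4 failed the filter on low values. Without that filter its log2 fold change was 0.69 (SE 0.14, adjusted p = 0.0198).

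Chac1 encodes an enzyme that degrades glutathione and is a target of ATF4. It was at 0.103, 0.162, 0.338 and 0.166 FPKM in control and 0.0858, 0.670, 2.90 and 0.106 FPKM in KD blastocysts. The mean of KD rested on library 5, while KD libraries 1 and 6 lay within or below the control range. Without the filter, its adjusted p was 0.505. KD library 5 held the highest KD value for 6 of the 10 members, Atf4, Chac1, Ddit4, Ppp1r15a, Psat1 and Trib3.

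Asns encodes asparagine synthetase. It was at 38.6, 37.9, 28.2 and 20.8 FPKM in control and 34.1, 45.8, 36.9 and 35.2 FPKM in KD blastocysts. The groups overlapped (log2 fold change 0.31, SE 0.23, adjusted p = 0.322). Psat1 encodes the aminotransferase of serine synthesis, and was at 84.0, 127, 125 and 133 FPKM in control and 243, 223, 257 and 233 FPKM in KD blastocysts. Its KD libraries were all above control, with a log2 fold change of 1.05 (SE 0.15, adjusted p = 0.000326).

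Each called difference in blastocysts was kept with any library left out. The highest adjusted p was 0.00453 for Trib3, 0.00419 for Ppp1r15a, 0.00150 for Psat1 and 0.000671 for Atf3. The exact permutation test over the 70 splits of 8 libraries, two-sided and unadjusted, gave p = 0.0286 for each of Atf3, Ppp1r15a, Psat1 and Trib3. That is the smallest p it allows. Groups that do not overlap always give it, so it adds nothing to the lack of overlap. Of the genes tested, 14.6% had KD blastocysts wholly above controls. For Atf4 the permutation p was 0.0571 on scaled values and 0.171 on FPKM as deposited.

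**Figure D2:**
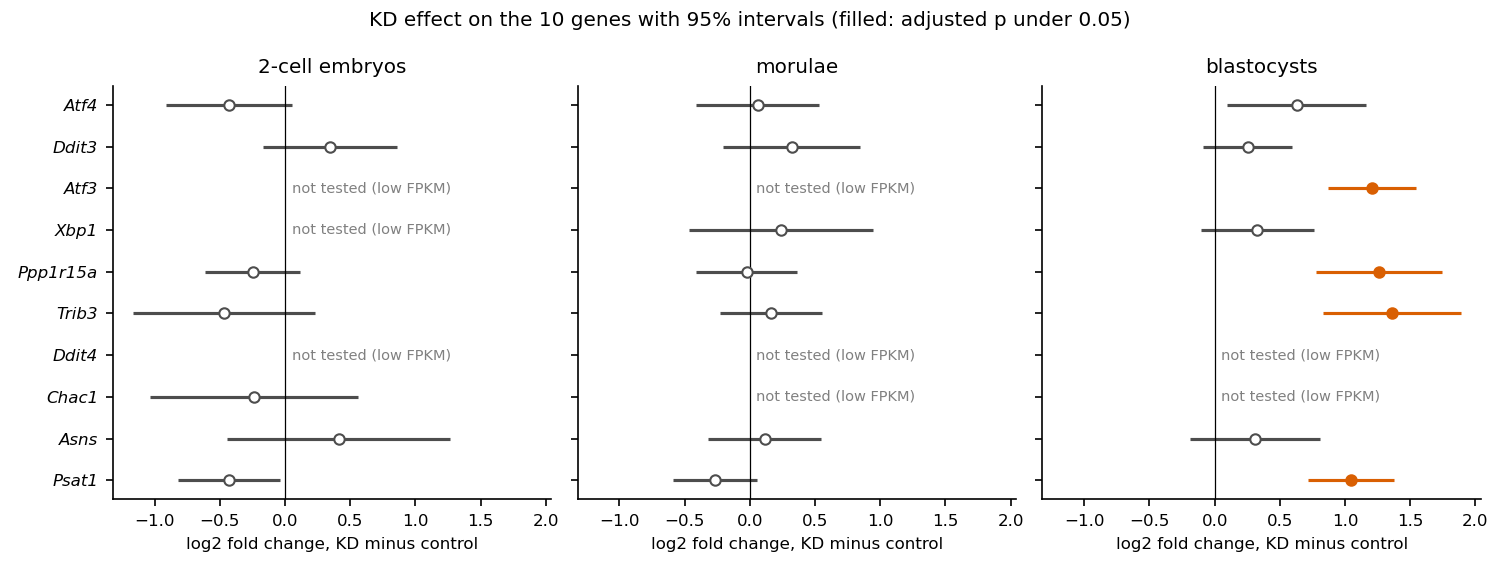
Log2 fold change of KD minus control for each gene (rows) at each stage (panels), with 95% intervals from limma. Filled orange points have an adjusted p under 0.05, and occur only in blastocysts, for Atf3, Ppp1r15a, Trib3 and Psat1.

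In morulae, no member passed the threshold. Of all 10989 genes tested there, 4.22% were higher and 9.05% lower in KD, and 7 members could be tested, with log2 fold changes from -0.27 for Psat1 to 0.32 for Ddit3. Psat1 was at 352, 337, 316 and 379 FPKM in control and 273, 237 and 282 FPKM in KD morulae. In FPKM as deposited, all KD morulae were lower than all control morulae, as for 22.9% of the genes tested. After the scaling used for the test the groups overlapped, and the adjusted p was 0.238. With FPKM as deposited, without scaling, it was 0.0414 and the log2 fold change -0.39. Mitochondrial transcripts took 15.7% to 18.3% of the FPKM total in KD morulae and 13.3% to 14.6% in controls, and their part in the lower Psat1 was not tested. Trib3 was at 1.72, 1.18, 1.59 and 1.91 FPKM in control and 2.33, 1.67 and 1.33 FPKM in KD morulae, Ppp1r15a at 9.54, 6.99, 5.75 and 5.95 FPKM and 7.33, 6.62 and 4.93 FPKM. Both overlapped between groups. Atf4 was at 71.3, 38.4, 34.4 and 37.2 FPKM in control and 52.0, 40.6 and 33.6 FPKM in KD morulae, with control library 1 above the rest (log2 fold change 0.06, SE 0.21, 95% interval -0.41 to 0.53, adjusted p = 0.874). The groups overlapped for Atf4, as for Ddit3, Asns, Xbp1, Ddit4 and Chac1.

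In 2-cell embryos, 0 of the 12160 genes tested passed the threshold (percent called 0, with 701 at an unadjusted p under 0.05), so that no member could be told apart. H2afz itself, without overlap between groups, had a log2 fold change of -2.53 (SE 0.38) and an adjusted p of 0.544. Atf4 was at 48.1, 36.5, 77.5 and 61.8 FPKM in control and 34.2, 37.6 and 42.4 FPKM in KD embryos. The log2 fold change was -0.43 (SE 0.22, adjusted p = 0.828). The groups overlapped, with KD library 1 below all controls. Trib3 was at 5.74, 5.00, 16.4 and 11.5 FPKM in control and 5.44, 6.78 and 5.06 FPKM in KD embryos, and Ppp1r15a at 57.8, 59.0, 70.6 and 46.9 FPKM and 46.1, 53.0 and 40.9 FPKM. Each overlapped between groups. Psat1 had a log2 fold change of -0.43 (SE 0.18), Trib3 of -0.47 (SE 0.32) and Ppp1r15a of -0.25 (SE 0.16). Control library 4 held the highest control value for 7 members. Xbp1, Atf3 and Ddit4 were below 1 FPKM in all 2-cell libraries and were not tested.

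Whether the KD effect differed between stages was tested as an interaction. The KD effect was larger in blastocysts than in morulae for Psat1 by 1.27 on the log2 scale (SE 0.20, adjusted p = 0.000745), Ppp1r15a by 1.25 (SE 0.29, adjusted p = 0.0111), Trib3 by 1.15 (SE 0.32, adjusted p = 0.0266) and Atf3 by 1.11 (SE 0.18, adjusted p = 0.000816). Of the 12727 genes tested, 5.43% had such a difference upward and 6.3% one downward. Atf3 reached 1 FPKM only in KD blastocysts, so its place in this test is not independent of its difference. That of Trib3 did not pass without control morula library 8 (adjusted p = 0.0513), KD morula library 2 (0.0586) or KD morula library 6 (0.0681), nor without the filter on low values (0.0939). With the replicate number as a block, neither Trib3 (adjusted p = 0.0985) nor Ppp1r15a (0.0530) passed, which left 2 of the 4 members. For Atf4 the difference was 0.53 (SE 0.35, adjusted p = 0.354). Between 2-cell embryos and morulae, no member's KD effect differed past the threshold (1.43% of 14605 genes did in either direction).

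**Figure D3:**
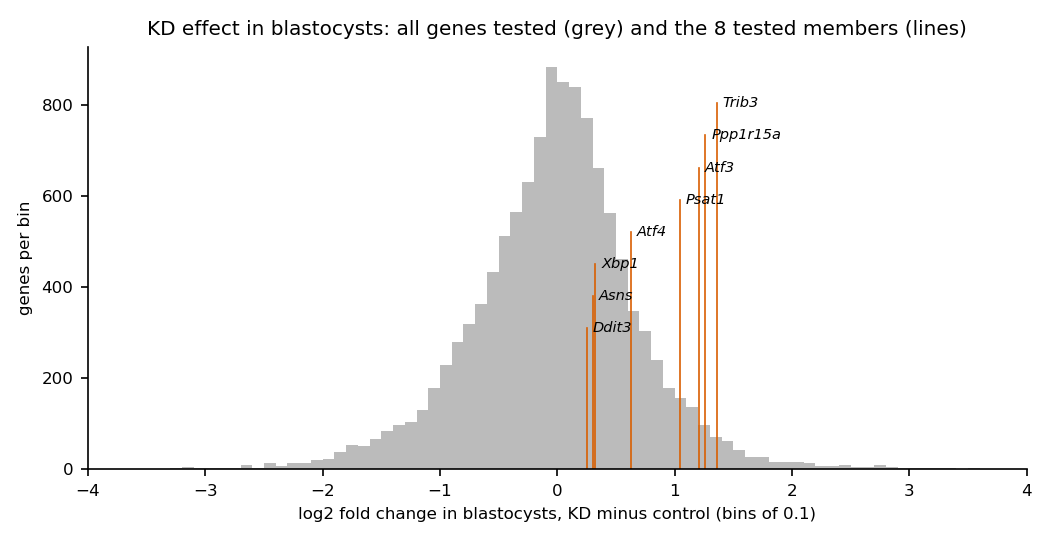
Number of genes per bin of 0.1 of the log2 fold change in blastocysts for all genes tested (grey), with orange lines at the values of the 8 tested members, whose heights carry no value. Trib3, Ppp1r15a, Atf3 and Psat1 lie between 1.05 and 1.36, in the upper part of the distribution.

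The members followed unlike courses in control embryos, whose libraries are also the controls of the KD comparisons. From 2-cell embryos to morulae, Xbp1 rose by 3.45 on the log2 scale, Asns by 3.19 and Psat1 by 2.49, whereas Ppp1r15a changed by -2.90, Trib3 by -1.91 and Ddit3 by -0.86, all with adjusted p of at most 0.00326 (43% of 13655 genes rose and 40.3% fell). Atf4 changed by -0.32 (SE 0.22, adjusted p = 0.205). From morulae to blastocysts, Ddit3 rose by 1.80, Xbp1 by 1.03 and Asns by 0.61, and Psat1 changed by -1.66, Ppp1r15a by -1.56 and Trib3 by -0.78 (27.6% of 11849 genes rose and 28.8% fell). Asns passed at an adjusted p of 0.0360, and no longer without control morula libraries 1 (0.0861), 2 (0.0811) or 7 (0.0733) or control blastocyst libraries 1 (0.0858) or 4 (0.0930), nor without the filter on low values (0.114). By these levels, Psat1 in control embryos peaked in morulae at 346 ± 26.6 FPKM (SD, n = 4), and Ppp1r15a and Trib3 were highest in 2-cell embryos at 58.6 ± 9.69 and 9.67 ± 5.35 FPKM.

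The genes with a pattern most like a member's over the 22 libraries included Prpsap1 (Pearson r = 0.862) and Hgs (0.849) for Atf4, Carhsp1 (0.914), Reep5 (0.901) and Mettl7a3 (0.900) for Ddit3, and Gpatch2 (0.960), A930014E10Rik (0.951) and Gadd45b (0.948) for Trib3, among 15697 genes. These values describe likeness over libraries that share stages and are not tests.

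Other genes of the pathway were followed as 5 lists, set against the 16.7% of genes higher and 19.8% lower in KD blastocysts, and the 4.22% higher and 9.05% lower in KD morulae. Of 24 other targets of ATF4 and CHOP that regulate stress, 14 were tested and 10 were higher in KD blastocysts and 0 lower, with a median log2 fold change of 0.85. Of the 10, 4 passed the filter only through KD libraries, Sesn2 and Nupr1 among them. Without those 4 the median was 0.48 over 10 genes, 6 of them higher. Sesn2, a sestrin that restrains mTORC1, rose from 0.621 ± 0.380 to 4.25 ± 1.95 FPKM (SD, n = 4 each), Herpud1, of endoplasmic reticulum associated degradation, from 7.67 ± 2.61 to 21.8 ± 7.04 FPKM, and Nupr1, a stress-induced chromatin protein, from 0.371 ± 0.583 to 2.22 ± 0.901 FPKM. With each library left out, 8 to 9 of the list were higher. In morulae, 2 of 14 were higher, Cebpg, a partner of ATF4 (log2 fold change 1.09), and Eif4ebp1, a repressor of cap-dependent translation (0.67). There were 4 without control morula library 1. Cebpg did not pass with every library left out (highest adjusted p = 0.0593).

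Of 32 genes of the ATF6 and IRE1-XBP1 arms, 28 were tested in blastocysts, 11 were higher (3 of them tested only through KD libraries) and 1 lower, with a median log2 fold change of 0.28. Dnajb9, an HSP40 co-chaperone of the endoplasmic reticulum, rose from 22.1 ± 2.91 to 88.6 ± 2.89 FPKM (log2 fold change 1.97, SE 0.15, adjusted p = 3.18e-06), and Creld2 from 39.0 ± 12.6 to 111 ± 21.4 FPKM. Derl3, of endoplasmic reticulum associated degradation and tested only through KD libraries, rose by 1.18 on the log2 scale. Hspa13, an HSP70 family member, fell by 0.77. The number higher was 6 without KD blastocyst library 1 and 7 without library 5. In morulae, Dnajb9 was higher (0.74), and Atf6 (-0.62) and Derl1 (-0.57) were lower, and none of these 3 passed with every library left out.

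Of 21 other targets in amino acid synthesis and transport, 14 were tested in blastocysts, 4 were higher (2 of them tested only through KD libraries) and 3 lower. The number higher was 2 without KD blastocyst library 5. Cth, of cysteine synthesis, rose by 1.42 (SE 0.19), and Slc3a2, a subunit of amino acid transporters, by 0.82 (SE 0.16), while Psph, the last enzyme of serine synthesis, fell by 0.97 and Got1, an aspartate aminotransferase, by 0.78. Slc38a2, a neutral amino acid transporter (0.60, adjusted p = 0.0430), and Aldh18a1, of proline synthesis (-0.72, adjusted p = 0.0274), each overlapped between groups and did not pass with every library left out. Slc38a2 was tested only through KD libraries. In morulae, Shmt2, the mitochondrial serine hydroxymethyltransferase, was the single gene of the list that differed, and it was lower (-1.03, SE 0.18, adjusted p = 0.00714).

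Among 22 eIF2 kinases, eIF2 subunits and regulators, 19 were tested in blastocysts and 2 were higher and 2 lower. Without KD blastocyst library 5, 4 were higher. Impact, an inhibitor of the kinase GCN2, rose from 15.6 ± 3.69 to 33.2 ± 2.94 FPKM in blastocysts and from 15.4 ± 3.64 (n = 4) to 33.9 ± 2.53 FPKM (n = 3) in morulae. Eif2b2, a subunit of the exchange factor of eIF2, rose by 0.77, and Ppp1cb, a catalytic subunit of protein phosphatase 1, and Eif2a, an initiation factor distinct from eIF2alpha, fell by 0.93 and 0.56. Of 22 bZIP partners and AP-1 genes, 10 were tested and 4 were higher (1 of them tested only through KD libraries), among them Mafg (1.16), Fos (1.09) and Atf1 (0.64). The number was 3 without KD blastocyst library 5. In 2-cell embryos, 0 genes of any of the 5 lists passed.

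**Figure D4:**
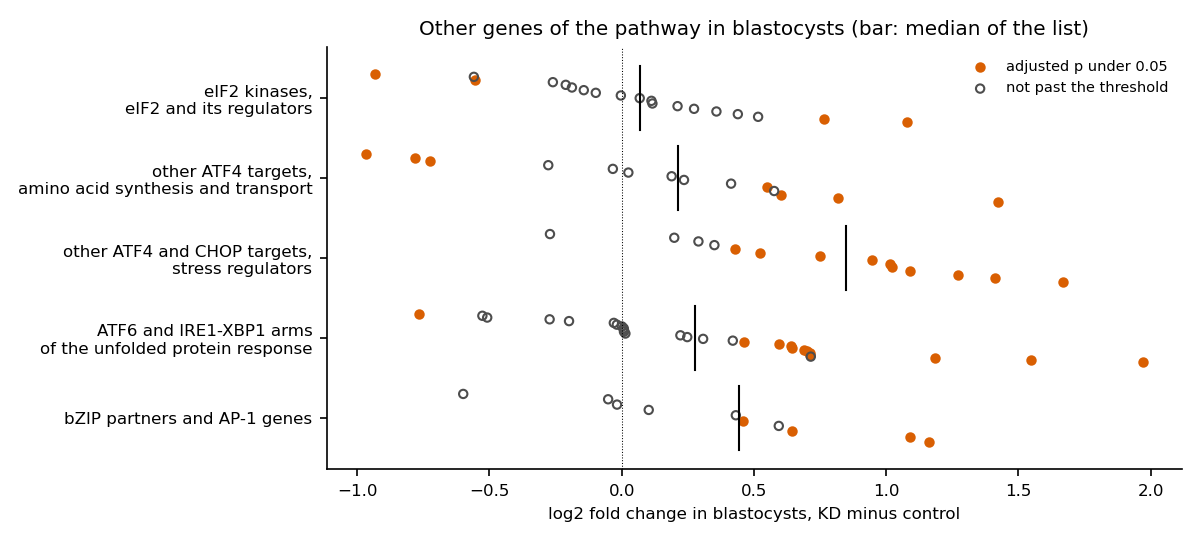
Log2 fold change of KD minus control in blastocysts for each tested gene of the 5 lists (rows), with filled orange points for adjusted p under 0.05 and a black bar at the median of the list. The list of other ATF4 and CHOP targets has its median at 0.85 and no gene past the threshold below 0.

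The KD blastocysts with higher Trib3, Ppp1r15a, Atf3 and Psat1 also had lower Krt18 and Elf5, higher Tfap2c and a higher sum of 2-cell markers, as given above, and their mitochondrial transcripts took 13.0% to 15.3% of the FPKM total against 15.2% to 20.0% in controls. Of the 2-cell markers, Zscan4c overlapped between these groups. Of the inner cell mass markers, Klf4 (3.90 to 4.82 FPKM in control and 5.51 to 12.1 FPKM in KD) and Esrrb, below 0.338 FPKM, were higher in KD blastocysts without overlap. Pou5f1, Nanog and Sox2 overlapped. Mean Psat1 was 346 FPKM in control morulae, 117 FPKM in control blastocysts and 239 FPKM in KD blastocysts. In the same order, mean Ppp1r15a was 7.06, 1.93 and 5.81 FPKM, mean Trib3 1.60, 0.570 and 3.28 FPKM, and mean Atf3 0, 0.126 and 1.60 FPKM. The part of all these, and of delayed development, in the differences was not tested.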

How the data were processed

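RNA-seq was measured in 22 libraries. Per the labels and the study's methods, the authors aligned reads to mm10 with STAR and quantified genes with StringTie 2.1.4, and deposited FPKM, which are normalized for transcript length and library total. Read counts were not used here, so no count test was run, and depth is unknown. For each comparison, each library was scaled by its median ratio to the genes' geometric means, over genes above 0 in every library. The factors were centred to a geometric mean of 1. The first fit left them uncentred. Centring was adopted after the data were examined, to follow an earlier description of these data whose gene counts the uncentred factors had not matched, and the uncentred fit is given as an alternative. Genes of at least 1 FPKM in at least 3 libraries of the comparison were tested on log2(FPKM + 1) with limma 3.58.1 in R 4.3.3 (trend, Benjamini-Hochberg over all genes tested), without a block. Fold changes on that scale understate those of low genes. Steps were tested on simulated data. Tables were made with Python 3.11.15, pandas 2.3.3 and numpy 2.4.6, figures with matplotlib 3.10.9.

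The members and the lists were chosen with earlier results of these data known. Named genes were the 10 members, H2afz, at most 3 genes in each direction of each list with the largest absolute log2 fold change past an adjusted p of 0.05, and the 3 genes most correlated with Atf4, Ddit3 and Trib3, of which 1 is not reported here. Same-numbered control and KD libraries were checked for shared deviations from their group means, and correlations from -0.11 to 0.353 did not establish a pairing. Low and high numbers did share deviations in morulae. There, correlations were 0.0943 to 0.346 within numbers 1 and 2 or within 6 to 8, and -0.278 to -0.0944 across. In 2-cell embryos, control libraries 1 and 2 went with KD library 1 (0.208 and 0.205), and control libraries 4 and 5 with KD library 4 (0.214 and 0.163). The reported fits do not model this. Alternatives were other scalings, a pseudocount of 0.1, other filters, limma without trend, a replicate block, low against high replicate numbers as a batch term, exact permutation tests and each library left out.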

Additional observations from a re-analysis of the deposited data

Results flagged for a closer look

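In 6 of the 40 groups of 4 libraries checked, 1 library stood apart from the other 3, where chance gives about 1 in 20 groups. The 6 were Atf4 in control morula library 1 (71.3 FPKM) and KD blastocyst library 5 (103 FPKM), Psat1 in control blastocyst library 1 (84.0 FPKM), Atf3 in KD blastocyst library 1 (1.05 FPKM), Asns in control morula library 8 (21.6 FPKM) and Ddit4 in control 2-cell library 4 (0.814 FPKM). The KD effect differed between blastocysts and morulae by the interaction test for Psat1 (1.27), Ppp1r15a (1.25), Trib3 (1.15) and Atf3 (1.11), on the log2 scale. For Trib3 this was lost with any of 3 single libraries left out, without the filter on low values and under the replicate block, and for Ppp1r15a under the block. Atf3 passed the filter for this test only through KD blastocysts.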

How the results depend on the processing

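Under the alternatives tried, the 4 members called higher in blastocysts kept their direction. With a filter at 5 FPKM, 2 members were called higher there and 2 in the interaction of blastocysts and morulae, since Atf3 and Trib3 were not tested. That filter gave 858 genes past the threshold in morulae, 2768 in blastocysts, 6976 from control 2-cell embryos to morulae and 4271 from control morulae to blastocysts, against 1459, 4321, 11374 and 6686 in the reported fits. Without a filter there were 412 in morulae, 983 in the interaction of blastocysts and morulae (1493 reported) and 119 in that of morulae and 2-cell embryos (209 reported). The latter count was 134 with a pseudocount of 0.1 and 341 with FPKM as deposited. As deposited or at the same FPKM total, 1 member, Psat1, was lower in morulae. At the same FPKM total the median of all genes shifted to -0.13 in morulae, -0.21 from control 2-cell embryos to morulae and 0.24 in the interaction of blastocysts and morulae. With uncentred factors, added after the data were examined, no call on a member changed, and the counts past the threshold were 1458 in morulae and 4321 in blastocysts.

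The replicate block, for numbers that were not shown to pair the libraries, gave 5 members higher in blastocysts, with Atf4 at an adjusted p of 0.0174. Under the block, 2 members passed the interaction of blastocysts and morulae, since Ppp1r15a (adjusted p = 0.0530) and Trib3 (0.0985) did not, and 0 genes passed that of morulae and 2-cell embryos. Control morulae and blastocysts share too few numbers for a block.

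With each library left out, genes past the threshold ranged from 0 to 3 in 2-cell embryos, 552 (without KD library 2) to 1744 in morulae (579 without KD library 1, 854 and 910 without control libraries 8 and 7), 3461 to 4147 in blastocysts, 958 (without KD morula library 1) to 1720 in the interaction of blastocysts and morulae and 86 to 332 in that of morulae and 2-cell embryos. Genes under about 1 FPKM, such as Ddit4, Atf3 and Chac1, rest on few fragments.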
